A study of Cucumis melo with 4 samples.

Results

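In the processed files of this melon (Cucumis melo) study, 54 of 76260 unigenes carry the name of a cytochrome P450. A unigene is a transcript assembled from the reads. Members were chosen by their annotation: a melon coding sequence (CDS) identifier and a product name with the words cytochrome P450, leaving out products of flavonoid, jasmonate or abscisic acid metabolism. Of the 54 names, 53 are P450 enzymes of 22 subfamilies and 1 is an NADPH--cytochrome P450 reductase, the enzyme that passes electrons to P450s. The deposited tables disagree on which unigene is which CDS, and the check that follows goes against the names of the 54. They are therefore called P450-labelled unigenes here, and their values are given as those of unigenes, not of known P450 genes. The authors' lists of changed genes place P450 names on other unigenes, which are described first.

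RNA came from plants of 4 sex types, with 1 library each and no replicate. The labels give the monoecious library (male and female flowers) the genotype AAGG and the gynoecious library (female flowers only) AAgg. They give the hermaphrodite library (bisexual flowers only) aaGG and the andromonoecious library (male and bisexual flowers) aagg, while the authors' locus tables give these last genotypes the other way round. Each library is a bulk of RNA from recombinant inbred lines, mixed in equal amounts, and pools 4 tissue stages of each plant. These were true leaves of seedlings with 2 true leaves, then axillary buds with young leaves (1 week past transplanting), then flower buds below 2 mm and older buds close to opening. Line, tissue and sex type thus cannot be told apart within a library, and fewer cells of a type cannot be told from less RNA per cell. The hermaphrodite library ran on another flow cell than the other 3. Library totals were 25.51 to 27.04 M reads, and intervals below are 95% exact (Clopper-Pearson) intervals that cover counting error only.

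Cytochrome P450s are heme enzymes that insert oxygen from air into small molecules, with electrons from the reductase. In plants they form one of the largest enzyme families, named by number and letter from sequence likeness. They make and break down brassinosteroids and other hormones, build lignin precursors, cutin and suberin, and decorate terpenoids and other specialised compounds.

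The names were checked with the BLAST table, which pairs unigenes with melon CDS in 11805 rows and is the source of all 54 names. Rows stand in the order of the product names. The authors' 4 lists of changed genes also pair unigenes with CDS, directly or through identical RPKM values (reads per kilobase per M reads) in all 4 libraries. Of 377 unigenes found in both, 1 had the same CDS. For these 377, the CDS number in the lists never fell from one BLAST row to the next (Spearman rho 1.0), whereas the CDS numbers in the BLAST table itself had a rho of 0.0178 with row number over all 11805 rows. Unigenes that the library files name outside the BLAST table had the same CDS in the lists in 23 of 23 cases.

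For the P450-labelled unigenes this check gave no match. In 0 of 54 cases did the CDS number of the P450 name lie between the list-based CDS numbers of the nearest rows. The 53 P450 rows, 1835 to 1887, fall between MELO3C002047 and MELO3C002096 by the lists, and 26 of them within the 6 numbers from MELO3C002077 to MELO3C002082. The reductase-labelled Unigene49667 falls between MELO3C002738 and MELO3C002775. The lists pair 4 of the 54 with a CDS, directly or through identical RPKM values, and give another product in 4 of 4 cases. Unigene39446 (labelled CYP86B1) is listed as an aspartic proteinase and Unigene77158 (CYP78A4) as a peptidyl-tRNA hydrolase. Unigene42477 (CYP82A3) is listed as a DENN domain protein and Unigene906 (CYP76C1) as a gastric triacylglycerol lipase.

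**Figure D1:**
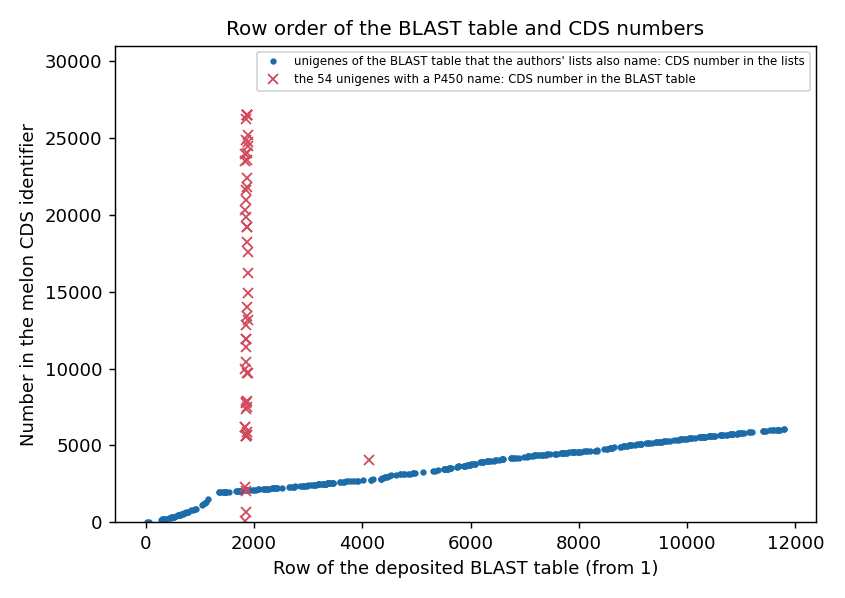
Number in the melon CDS identifier (vertical axis) against the row of the deposited BLAST table (horizontal axis). Blue points are the 377 unigenes that the authors' lists also name, at their listed CDS, and rise without a fall. Red crosses are the 54 P450-labelled unigenes at the CDS of the BLAST table, which spread over the whole range within rows 1835 to 1887 and row 4120.

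The BLAST rows also show labelled unigenes that may share a target. Rows next to each other had the same match end on the CDS in 13.3% of cases, against 0.0769% of rows 100 apart. Among the 54, 17 share their match end with another member. Unigene30685, Unigene30686, Unigene77158 and Unigene77159, labelled CYP78A3, CYP78A3, CYP78A4 and CYP77A3, all end at base 873 of the CDS. Unigene39445, Unigene39446 and Unigene39447, labelled CYP82A3, CYP86B1 and CYP86B1, all match bases 791 to 837. An equal match end does not by itself show a shared target. Unigene42477 and Unigene12192 both end at base 404, but by the lists they fall on different CDS. The first is listed as MELO3C002081, and the second falls between MELO3C002082 and MELO3C002096. Labelled unigenes still cannot be taken as independent of each other. No unigene sequence or annotated genome was used here that could settle the pairing, so the list-based pairs also stand unchecked against sequence.

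The authors' lists hold 26 P450 CDS in 41 entries. All 26 are CDS that a P450-labelled unigene carries in the library files. For 24 of them the list names 1 unigene or has RPKM values that 1 unigene alone has, and 0 of these 24 are among the 54. In the library files 19 of the 24 have no name and 5 have another. The authors listed these genes for a difference between libraries, so their levels are a description without a test, and the listed unigenes cannot stand for P450 genes that did not differ. Their depth was low, with 5 to 1106 reads over the 4 libraries, a median of 102, and 12 of 24 at 100 or more.

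**Figure D2:**
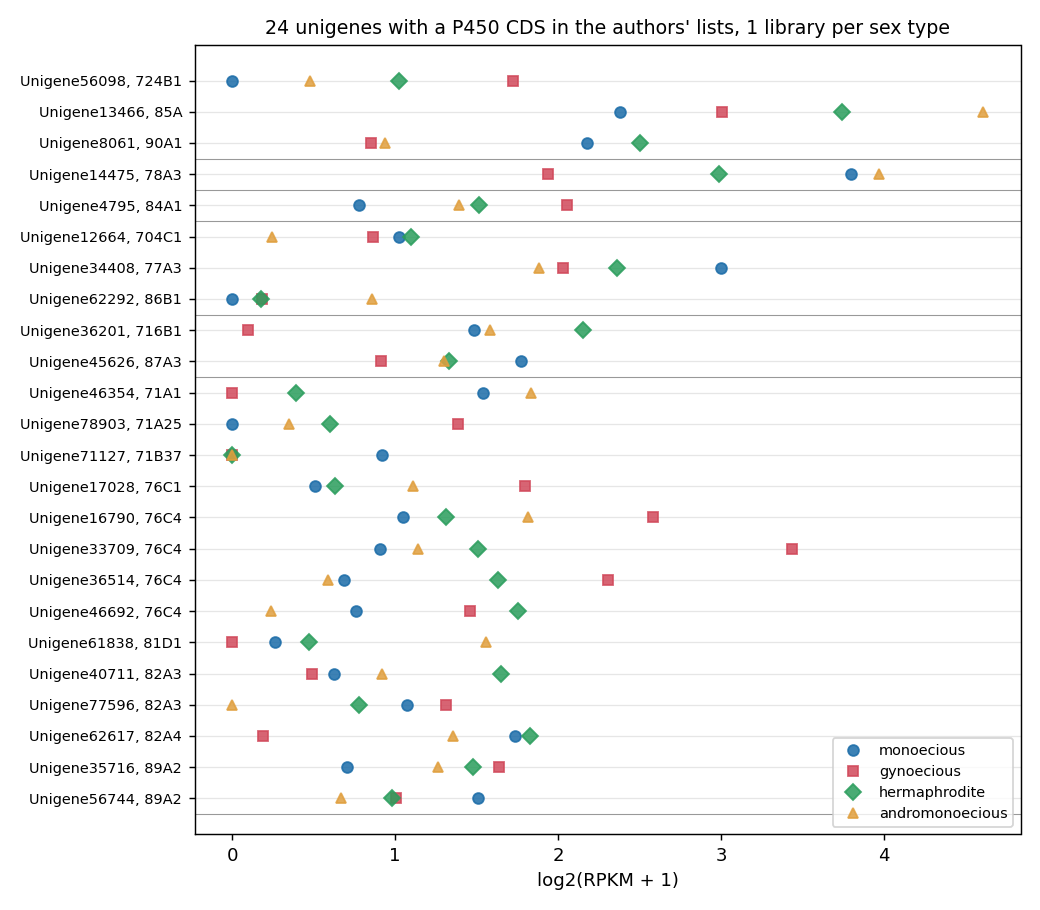
Level of the 24 unigenes with a P450 CDS in the authors' lists, as log2(RPKM + 1), grouped by the role of the named family from brassinosteroid synthesis (top) to specialised metabolism (bottom). Each symbol is 1 library. The gynoecious library is highest in 9 unigenes and lowest in 9. Over all unigenes with at least 100 reads, a depth that 12 of the 24 reach, it is highest in 33.9% and lowest in 26.5%. The 24 were listed for a difference between libraries.

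Brassinosteroid enzymes made up 3 of the 24, and no library was highest in all. CYP85A enzymes catalyse a late oxidation in brassinosteroid synthesis. Unigene13466, listed as CYP85A, had an RPKM of 4.21 in the monoecious, 7.02 in the gynoecious, 12.4 in the hermaphrodite and 23.4 in the andromonoecious library. It had the most reads of the 24, and 538 andromonoecious against 100 monoecious reads made a 5.56-fold difference (4.49 to 6.96). CYP90A1 of Arabidopsis, known as CPD, acts earlier in the same pathway. Unigene8061, listed as CYP90A1, had 40 monoecious, 9 gynoecious, 54 hermaphrodite and 10 andromonoecious reads. It was thus low in the libraries labelled gg, with 5.79-fold more in the hermaphrodite than in the gynoecious library (2.83 to 13.3) and 5.09-fold more than in the andromonoecious (2.57 to 11.2). Unigene56098, listed as CYP724B1, a brassinosteroid family known from rice, had 0 monoecious, 30 gynoecious, 14 hermaphrodite and 5 andromonoecious reads.

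The CYP78A family promotes organ growth in Arabidopsis. Unigene14475, listed as CYP78A3, had an RPKM of 12.9 in the monoecious, 2.84 in the gynoecious, 6.95 in the hermaphrodite and 14.7 in the andromonoecious library. The libraries with male flowers were the high ones, and the monoecious level was 4.55 times the gynoecious one (3.34 to 6.31). CYP84A1 of Arabidopsis is ferulate 5-hydroxylase, which leads to syringyl lignin. Unigene4795, listed as CYP84A1, ran the other way, with 21 monoecious, 92 gynoecious, 56 hermaphrodite and 46 andromonoecious reads, and was 4.43-fold higher in the gynoecious than in the monoecious library (2.74 to 7.5).

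Families that hydroxylate fatty acids were listed on 3 unigenes. CYP77A enzymes act on fatty acids of cutin, the polymer of the plant surface. Unigene34408, listed as CYP77A3, had an RPKM of 7.0 in the monoecious, 3.08 in the gynoecious, 4.15 in the hermaphrodite and 2.69 in the andromonoecious library, so the monoecious library stood highest. Unigene12664, listed as CYP704C1, had 52, 41 and 59 reads in the monoecious, gynoecious and hermaphrodite libraries and 9 in the andromonoecious. Its hermaphrodite level was 6.18 times the andromonoecious one (3.05 to 14.2). Unigene62292, listed as CYP86B1, a suberin enzyme in Arabidopsis, reached an RPKM of 0.814 in the andromonoecious library and at most 0.133 elsewhere.

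CYP76C enzymes of Arabidopsis oxidise monoterpene alcohols. They were listed on 5 unigenes, and 4 of these were highest in the gynoecious library. Over all unigenes with at least 100 reads, 33.9% were highest there. Unigene17028 and Unigene46692, with 65 and 58 reads in total, lie below that depth. All 4 that were highest there are in the list of gynoecious against monoecious, so the count depends in part on how the genes were chosen. Unigene33709, listed as CYP76C4, had 12 monoecious, 134 gynoecious, 26 hermaphrodite and 16 andromonoecious reads. That was 11.3-fold more in the gynoecious than in the monoecious library (6.26 to 22.4) and 5.34-fold more than in the hermaphrodite (3.49 to 8.47). Unigene16790 had 22, 101, 31 and 50 reads in the same order of libraries, and Unigene36514 had 15, 96, 53 and 12. The gynoecious library was 4.64-fold (2.91 to 7.74) and 6.47-fold (3.74 to 12) above the monoecious one in these. Unigene17028, listed as CYP76C1, had 6, 35, 8 and 16 reads. Unigene46692, also CYP76C4, was highest in another library, with 28 hermaphrodite against 20 gynoecious, 8 monoecious and 2 andromonoecious reads.

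Several other unigenes were low in the gynoecious library. Unigene36201, listed as CYP716B1, of a family known for triterpene oxidation, had 27 monoecious, 1 gynoecious, 53 hermaphrodite and 29 andromonoecious reads. The hermaphrodite to gynoecious ratio was 51.1, with an interval from 8.79 to 2057 that shows how little 1 read fixes it. Unigene46354, listed as CYP71A1, a family member first known from ripening avocado, had 36 monoecious, 0 gynoecious, 6 hermaphrodite and 47 andromonoecious reads. A count of 0 allows up to 3 reads at this depth. Unigene62617, listed as CYP82A4, had 17, 1, 19 and 11 reads in the same order. Unigene40711, listed as CYP82A3, had 15, 11, 61 and 24, and stood 5.35-fold higher in the hermaphrodite than in the gynoecious library (2.79 to 11.3). Its gynoecious RPKM of 0.401 was close to the monoecious 0.54, and the hermaphrodite library, from the other flow cell, stood out with 2.14. The part of the flow cell was not tested. Soybean members of CYP82A are known for their response to pathogens. The other 7 unigenes, listed as CYP71A25, CYP71B37, CYP81D1, CYP82A3, CYP87A3 and, in 2 cases, CYP89A2, had 5 to 113 reads in total.

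The authors' deposited table gives its own log2 ratio for each entry, and in 25 of the 41 P450 entries it equals the ratio of the RPKM printed in the same row within 0.01. In the other 16 it does not, and the levels above rest on the RPKM. For Unigene34408 the authors' deposited table has a log2 ratio of -3.17 for gynoecious against monoecious, whereas its RPKM give -1.18. In 6 of the 16 rows that differ, the 2 values have opposite signs: for Unigene16790 in monoecious against andromonoecious the authors' deposited table has 2.44, whereas its RPKM give -1.23.

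The 54 P450-labelled unigenes, which the rule selected, were more deeply covered. Each had at least 1 read in some library, 50 had reads in all 4 libraries, and 39 had 100 reads or more. The remaining 15 were left out of the counts by highest and lowest library. Their median RPKM, averaged over libraries, was 6.65, against 2.64 for all 11737 unigenes with a melon CDS. The 5 with the most reads held 57.1% of the 140880 reads. Summed over the 54, RPKM came to 1205 in the monoecious, 774 in the gynoecious, 1132 in the hermaphrodite and 1190 in the andromonoecious library. Without the 3 that had the most reads, the gynoecious sum of 557 was still the lowest and the andromonoecious sum of 811 the highest.

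Low gynoecious values came from several of the most abundant labelled unigenes. Unigene23590 (labelled CYP76C4) had an RPKM of 235 in the monoecious, 127 in the gynoecious, 139 in the hermaphrodite and 141 in the andromonoecious library. Unigene12095 (CYP71B19) had 144, 44.2, 131 and 90.1 in the same order. Unigene50634 (CYP724B1) had 5826 monoecious, 1607 gynoecious, 3221 hermaphrodite and 4122 andromonoecious reads. The gynoecious library was the lowest for all 3. Unigene38564 (CYP87A3) had 82.7, 40.4, 133 and 107, Unigene23095 (CYP89A2) 74.1, 35.5, 53.3 and 99.9, and Unigene40871 (CYP87A3) 41.0, 22.5, 30.2 and 80.6. They were lowest in the gynoecious library too. Of the 8 with the highest mean, Unigene53750 (CYP76C4) with 40.9, 81.3, 67.8 and 78.2 and Unigene51198 (CYP97B2) with 38.8, 40.3, 54.1 and 50.7 were instead lowest in the monoecious library.

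Among the 39 with at least 100 reads, RPKM was lowest in the gynoecious library for 21, in the monoecious for 12, in the andromonoecious for 4 and in the hermaphrodite for 2. Over all 34861 unigenes of that depth, the shares lowest in these libraries were 26.5%, 30.9%, 26.7% and 16.0%. The gynoecious count, 53.8% of the 39, stood above its background and the monoecious count did not. RPKM was highest in the hermaphrodite library for 14, in the andromonoecious for 11 and in the monoecious and gynoecious for 7 each, against background shares of 27.0%, 16.8%, 22.2% and 33.9%. Keeping 1 labelled unigene for each match end left 19 of 37 lowest in the gynoecious library. This merging also joined Unigene42477 and Unigene12192, which the lists place apart. Because these unigenes are neighbours in the BLAST table and several may share a target, their count cannot be read as one of separate genes.

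**Figure D3:**
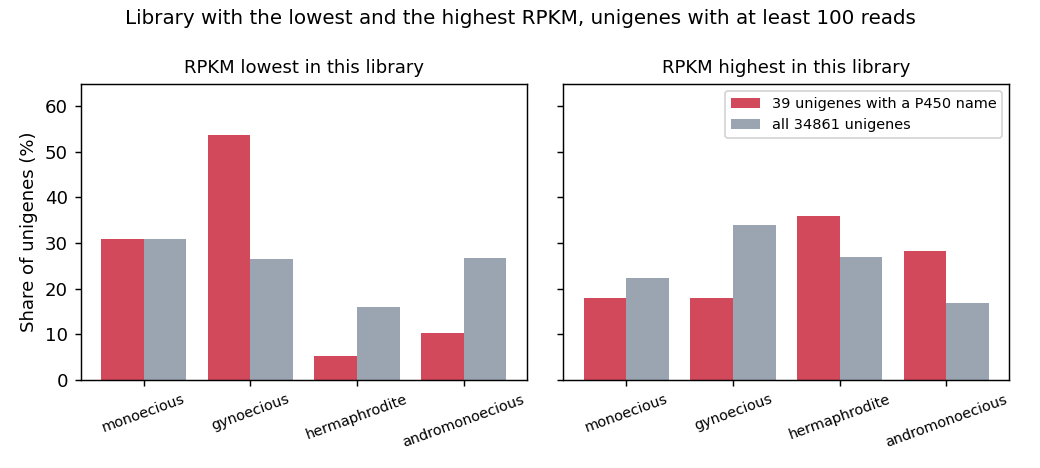
Share of unigenes whose RPKM was lowest (left) or highest (right) in each library, for the 39 P450-labelled unigenes (red) and all 34861 unigenes (grey) with at least 100 reads. The gynoecious library was lowest for 53.8% of the labelled unigenes and 26.5% of all.

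The spread between libraries was close to that of all unigenes. The highest library was a median of 2.38 times the lowest for the 39, and 2.32 times for all 34861. With TMM-scaled reads, the median log2 ratio of gynoecious to monoecious was -0.58 over 39 labelled unigenes (50 reads or more in the pair) and 0.02 over all 34865. That of andromonoecious to gynoecious was 0.51 against -0.03. The other 4 pairs had medians of 0.05 to 0.38, against 0.00 to 0.05 over all unigenes in size.

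**Figure D4:**
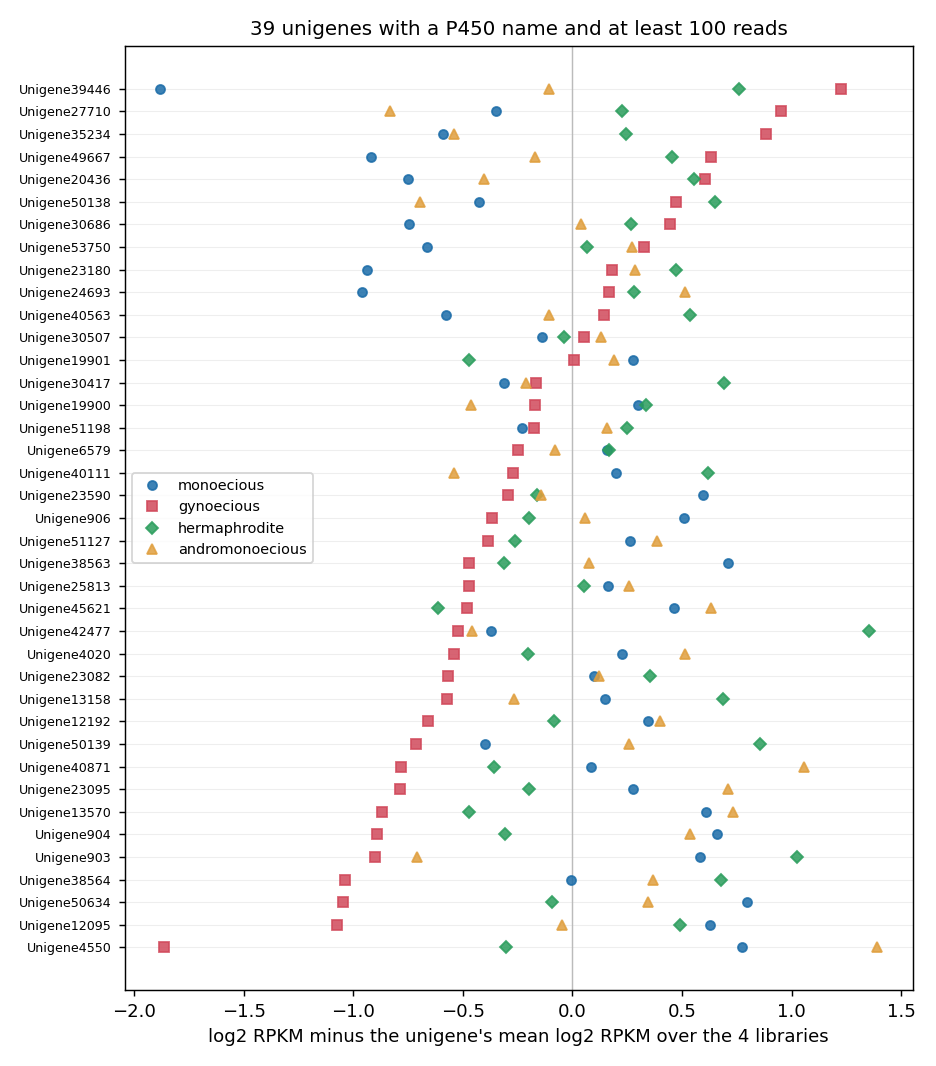
log2 RPKM in each library minus the unigene's mean log2 RPKM over the 4 libraries, for the 39 P450-labelled unigenes with at least 100 reads. Rows are sorted by the gynoecious value, and each symbol is 1 library. Unigene4550 (bottom) is lowest in the gynoecious library and Unigene39446 (top) in the monoecious.

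Libraries were next set 2 against 2, with limma on log2(RPKM + 1), to compare a locus genotypes, labelled g genotypes, and the presence of male flowers. The a locus sides are the same by the labels and by the authors' locus tables. By the locus tables, however, the male flower split is also that of GG against gg, and the labelled g split compares no single locus. Which genotypes are right was not tested. For the a locus (hermaphrodite and andromonoecious against monoecious and gynoecious), limma called 0 of 46 labelled unigenes tested, at a background of 0.0122% of 49319 unigenes. With unadjusted p-values under 0.05 there were 0 of 46, where the background is 2.74%. That count was 1 of 46 (2.17% against 2.95%) with a pseudocount of 0.1 and 2 of 54 (3.7% against 2.61%) without the filter. It was 2 of 46 (4.35%) with TMM scaling (background 2.77%) and with DESeq2 size factors (2.76%). Unadjusted edgeR (2.05%) and DESeq2 (2.43%) also had 2 of 46. Adjusted edgeR and DESeq2 tests also called 0, at backgrounds of 0.0% and 0.0547%. Levels were higher in aa for 36 of the 46, with a median log2 difference of 0.25, against 50.4% and 0.00 over all tested. Both a locus sides were apart without overlap in 6 of 39 labelled unigenes, all higher in aa, where the background is 11.8%, and in 0 of 39 lower in aa, where it is also 11.8%. The widest gap was that of Unigene50139 (CYP82A4), with an RPKM of 13.8 and 11.1 in AA against 33.0 and 21.8 in aa, 1.57-fold between the closest libraries (1.38 to 1.79).

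For labelled g (gynoecious and andromonoecious against monoecious and hermaphrodite), limma called 0 of 46, at a background of 0.0%. At an unadjusted p under 0.05 it had 1, where the background is 5.07%, and adjusted tests by edgeR (0.0%) and DESeq2 (0.0588%) called 0. The sides did not overlap in 7 of 39 that were lower in labelled gg (background 19.5%) and in 2 that were higher (15.4%), so neither count exceeded its background. Unigene903 (CYP71B37) alone had a gap of 2-fold, in the direction where 1.53% of all unigenes have one. Its RPKM was 2.22 in the monoecious and 3.02 in the hermaphrodite library, and 0.794 and 0.907 in the gynoecious and andromonoecious ones. The closest libraries were 2.44-fold apart (1.41 to 4.40), and limma gave a log2 difference of -0.96 ± 0.41 (SE; adjusted p = 0.913).

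For male flowers (monoecious and andromonoecious against gynoecious and hermaphrodite), limma again called 0 of 46, at a background of 0.00203%. At an unadjusted p under 0.05 it had 8, or 17.4%, against 8.25% of all tested, and adjusted tests by edgeR (0.0%) and DESeq2 (0.56%) called 0. That unadjusted count was 3 of 46 (6.52%, against 7.26% of all tested) with a pseudocount of 0.1. It was 9 of 54 (16.7% against 6.62%) without the filter. With TMM scaling it was 7 of 46 (15.2% against 7.95%), and with DESeq2 size factors 7 of 46 (15.2% against 7.97%). The edgeR count was 6 of 46 (13.0% against 6.7%) and the DESeq2 count 6 of 46 (13.0% against 7.39%). Fits without a library leave 1 library on a side. There the share lay below that of all tested without the gynoecious, monoecious or andromonoecious library, and above it without the hermaphrodite library. Of the 46, 21 were higher and 25 lower with male flowers, with a median log2 difference of -0.04 against -0.12 over all tested. The sides did not overlap in 15 of 39 that were higher with male flowers, where the background is 14.2%, and in 9 that were higher without, where it is 27.3%. Unigene4550 (CYP71A1) and Unigene13570 (CYP76C4) had a gap of 2-fold, as 1.62% of all unigenes do in that direction. With TMM scaling 4 members had one, against 2.26% of all unigenes, and with DESeq2 size factors 4, against 2.24%, the additions being Unigene904 and Unigene45621. The limma difference was larger for Unigene4550. It had an RPKM of 7.91 and 12.1 in the monoecious and andromonoecious libraries, and 1.27 and 3.75 in the gynoecious and hermaphrodite ones. The closest libraries were 2.11-fold apart (1.66 to 2.70), and the limma log2 difference was 1.72 ± 0.49 (SE; adjusted p = 0.587). Unigene13570 had 23.9 and 26.0 with male flowers and 8.58 and 11.3 without, 2.12-fold between the closest (1.84 to 2.44) and 1.26 ± 0.40 in log2 (limma adjusted p = 0.587). Unigene904 (CYP71A25) had 30.5 and 28.0 against 10.4 and 15.6. Unigene12192 (CYP90A1) had 9.35 and 9.72 with male flowers against 4.67 and 6.96 without, 1.34-fold between the closest libraries (1.16 to 1.56). Unigene36271 (CYP84A1), with 72 reads in total, had 1.79 and 0.963 against 1.16 and 1.26, so its sides overlapped.

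In the opposite direction, Unigene39446 (CYP86B1) had an RPKM of 0.684 and 2.34 with male flowers and 5.88 and 4.27 without, and a limma log2 difference of -1.35 ± 0.47 (SE; adjusted p = 0.587). The reductase-labelled Unigene49667 had 7.38 in the monoecious, 21.6 in the gynoecious, 19.1 in the hermaphrodite and 12.4 in the andromonoecious library. Its sides did not overlap either, at -1.0 ± 0.42 in log2 (limma adjusted p = 0.601). Unigene27710 (CYP94A2), with 6.46, 15.9, 9.62 and 4.61, was likewise higher without male flowers. Unigene20436 (CYP97B2), with 1.26, 3.22, 3.11 and 1.60, was so too. Unigene30686 (CYP78A3) had 3.83, 8.74, 7.72 and 6.59, and Unigene40563 (CYP98A2) 5.68, 9.37, 12.3 and 7.88. In these, the closest libraries were only 1.17-fold (0.998 to 1.38) and 1.19-fold (1.03 to 1.38) apart.

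Single libraries stood at least 2-fold apart from all others in 7 labelled unigenes. Unigene4550, Unigene38564 and Unigene12095 were set apart by low gynoecious values, with the next library 2.95-fold (1.98 to 4.52), 2.05-fold (1.96 to 2.14) and 2.04-fold (1.91 to 2.18) higher. That is 3 of 39 where the background is 7.1%. Low monoecious values set apart another 3, at a background of 5.27%: Unigene39446 by 3.41-fold (1.64 to 7.76), Unigene24693 (CYP77A3) by 2.18-fold (1.63 to 2.93) and Unigene23180 (CYP77A1) by 2.16-fold (1.89 to 2.47). Unigene24693 had an RPKM of 8.15 in the monoecious library and 17.8 to 22.7 in the others, and Unigene23180 had 17.0 against 36.8 to 45.1. A high hermaphrodite value set apart Unigene42477 (CYP82A3), at a background of 1.59%. It had 9.86 there and 2.69 to 2.98 elsewhere, 3.31-fold above the next library (2.37 to 4.70), and the hermaphrodite library is the one from the other flow cell. The part of the flow cell in this value was not tested.

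Pairs of libraries differed at least 4-fold in 3 labelled unigenes, after TMM scaling and with 50 reads or more in a pair. Unigene4550 had 309 andromonoecious and 208 monoecious reads against 33 gynoecious, or 10.8-fold (7.54 to 16.0) and 6.73-fold (4.64 to 10). Unigene39446 had 85 gynoecious and 64 hermaphrodite reads against 10 monoecious, or 7.97-fold (4.13 to 17.2) and 5.72-fold (2.91 to 12.5). Unigene40871 was 4.05-fold higher in the andromonoecious than in the gynoecious library (3.62 to 4.53). These counts, 2 of 39 higher in andromonoecious against gynoecious and 1 of 39 in each direction for gynoecious against monoecious, compare with backgrounds of 5.41%, 5.24% (higher) and 6.74% (lower). For hermaphrodite against monoecious, 1 of 40 was higher at a background of 2.28%. All of these shares lie near or below their backgrounds, and they have no replicate check.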

How the data were processed

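RNA of 4 bulks, 1 per sex type, was sequenced. The authors deposited 1 file of RPKM per library, a BLAST table with the percent identity of each match, and 4 lists of changed genes with read counts, RPKM, log2 ratios and p-values (with false discovery rates), per the file headers. Aligner and assembler: not given in the sources used here. Because the lists' headers give library totals, whole reads were recovered from RPKM, taking the shortest length of 200 to 20000 nt that fits all 4 libraries within rounding. This worked for 100% of unigenes, and 1009 of 1049 listed unigenes had the listed length and reads (96.2%). On simulated unigenes 95.7% were recovered.

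The design assumed counts, but the library files hold RPKM, so limma 3.58.1 on log2(RPKM + 1) was the main test, which understates changes of low unigenes. It was run on the 49319 unigenes passing edgeR's filterByExpr (minimum count 10), with Benjamini-Hochberg adjustment at 0.05. edgeR 4.0.16 (quasi-likelihood) and DESeq2 1.42.0 on recovered reads, other scalings, pseudocounts and filters were alternatives. The scripts were tested on simulated data. With 2 bulks a side, the p-values reflect how far these particular bulks vary, which includes the other locus. Unigenes with at least 100 reads in total, or 50 in a pair, were compared between libraries. TMM factors (edgeR) scaled the pairs.

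Named unigenes were the 8 with the highest mean RPKM, those set apart by 2-fold in a split or a library, those with the most reads in each family group, the reductase, and any called by limma; Unigene904, Unigene45621 and Unigene50139, the sharing unigenes, those the lists name otherwise, and the listed P450 unigenes were named after their values were seen. The members and lists were chosen with earlier results of these data known. Planned counts by enzyme role and by word lists of marker and partner genes are left out, because their names come from the same BLAST table. For that reason the labelled tissues were not checked against markers. 8 columns of per-library values in the locus tables were not used. CDS identifiers had no match in the RefSeq gene table, so no coordinates or sequences are given.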

Additional observations from a re-analysis of the deposited data

Results flagged for a closer look

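The P450-labelled unigenes below had at least 100 reads and moved at least 2-fold in opposite directions in a contrast of single libraries. With 4 libraries, the difference between the ratios of such a pair is, apart from its sign, the male flower contrast described above. These are thus the same values in another arrangement and no separate result. In that split limma called 0 of 46 labelled unigenes, and each library is 1 bulk. From the monoecious to the hermaphrodite library and from the gynoecious to the andromonoecious library, which are a locus contrasts within labelled GG and labelled gg, the log2 ratios of RPKM were -1.08 and 3.26 for Unigene4550, -1.08 and 1.60 for Unigene13570, and -1.08 and 1.11 for Unigene45621. They were 1.31 and -1.01 for Unigene20436, 2.64 and -1.33 for Unigene39446, and 1.08 and -1.17 for Unigene50138. From the monoecious to the gynoecious library and from the hermaphrodite to the andromonoecious library, they were -2.64 and 1.70 for Unigene4550, -1.48 and 1.20 for Unigene13570, and 1.30 and -1.06 for Unigene27710.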

How the results depend on the processing

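limma called 0 P450-labelled unigenes in each of the 3 splits under each alternative tried, and edgeR and DESeq2 called 0 as well. Over all unigenes the a locus count of 6 became 0 with a pseudocount of 0.1, without the filter, with TMM or DESeq2 scaling and with edgeR, 27 with DESeq2, and 0 to 271 when a library was left out, the 271 without the monoecious. The labelled g count of 0 became 29 with DESeq2, and 0 to 12 when a library was left out, the 12 without the andromonoecious. The male flower count of 1 became 0 with a pseudocount of 0.1, without the filter and with edgeR, 276 with DESeq2, and 0 to 2 when a library was left out, where the lone library is assumed to vary like the others. The cause was not tested. No log2 difference given above for Unigene903, Unigene4550 or Unigene13570 changed sign under any alternative. Members at least 4-fold apart in some pair were 3, against 26 at 2-fold, 7 at 20 reads, and 1 among well-matched members (at least 95% identity over 100 nt). Members set apart in 1 library were 7, against 2 at 3-fold, 11 at 50 reads, and 4 among well-matched members. In a single pair and direction, 9.79% to 18.7% of all unigenes differed at least 2-fold. Shares of all unigenes for some pair, or for the other thresholds, are not given here. The member counts at those thresholds thus cannot be set against a background. Alternatives chosen after seeing the data left 15 to 22 members lowest in the gynoecious library, of 30 to 45 members. They left 10 to 15 whose sides did not overlap and that were higher with male flowers. By the main count, 26.5% and 14.2% of all unigenes did so, and shares under these alternatives are not given here. Members with a gap of 2-fold that were higher with male flowers went from 2 to 4 with TMM scaling and to 4 with DESeq2 size factors. The shares of all unigenes with such a gap were 1.62%, 2.26% and 2.24%. No paired analysis was possible because each sex type has 1 library. Limits are the pairing of unigenes with names and the single bulk per sex type.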
